A study of Homo sapiens with 30 samples.

Results

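The 86 genes described here encode the proteins of the cytosolic ribosome in SW1783 cells, an established human astrocytoma line. They were chosen by name among 60675 gene identifiers: protein-coding genes with RPL, RPS or RPLP symbols and RPSA, leaving out the RPS6K kinases and the pseudogenes. Of these, 52 belong to the large and 34 to the small subunit, and 84 of the 86 passed the filter on low counts that left 19632 genes for testing. RPL10L and RPS4Y2 did not pass, and RPL10L had counts in 1 library only, at 0.025 CPM (counts scaled by library size and TMM, edgeR's correction for composition) in Yijung-tang at 500 µg/mL.

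RNA was sequenced from cells treated for 24 h with 70% ethanol extracts of 4 herbal formulas. Bojungikgi-tang and Sayeok-tang were each given at 500, 100 and 20 µg/mL with 3 libraries per dose. Banhasasim-tang was given at the same doses with 2 libraries per dose, and Yijung-tang with 1 library per dose. The 3 vehicle libraries are labelled 0.1% DMSO, while the design text of the series gives 2%. The vehicle, the first pair of formulas and the second pair carry different label sets. The comparisons with vehicle therefore compare label sets too, and the effects of both cannot be told apart. The same holds for differences between Banhasasim-tang and Bojungikgi-tang or Sayeok-tang. Dose comparisons within a formula contain no vehicle library. Nothing in the labels says that replicates are separate cultures, so a p-value measures the spread between libraries, which may be technical.

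Library totals ran from 28.01 M to 59.9 M counts. Of 8 astrocyte markers, AQP4 was at 0 in vehicle and GFAP, S100B, SLC1A2 and ALDH1L1 were under 1 CPM, while SLC1A3 averaged 34.6 CPM, SOX9 73.9 CPM and GJA1 243 CPM. VIM, a mesenchymal marker, averaged 4280.3 CPM and KRT7, an epithelial one, 621 CPM, so the vehicle cells expressed only some of the defining astrocyte markers. Mitochondrially encoded RNA took 12.04 and 12.62% of counts in Banhasasim-tang at 500 µg/mL, 13.6 and 14.4% at 100 µg/mL and 8.88 and 10.0% at 20 µg/mL, 6.56 to 8.78% in the other treated libraries and 5.06 to 5.42% in vehicle. Its part in the results below was not tested.

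Markers of several cell types moved with the dose. In Banhasasim-tang at 500 against 20 µg/mL, 4 of 6 tested astrocyte markers fell (median log2 fold change -0.47), their summed level being 211 to 212 CPM at 500 µg/mL and 310 to 316 CPM at 20 µg/mL. Of the myeloid markers 2 of 3 fell (median -1.38; 4.66 to 5.15 CPM against 15.9 to 16.5 CPM), and of the neuron markers 2 of 4 fell and 1 rose (83.7 to 89.6 CPM against 151 to 158 CPM). In Bojungikgi-tang all 3 tested epithelial markers fell (median -0.52; 579 to 653 CPM at 500 µg/mL against 892 to 1008 CPM at 20 µg/mL), and they also fell without replicate 2 at 20 µg/mL, a library described further on. In Sayeok-tang 3 of 4 neuron and 2 of 3 myeloid markers fell, with medians of -0.33 and -0.54. There 2 of 3 epithelial (median -0.28) and 2 of 3 mesenchymal markers (median -0.30) fell too. Of the mesenchymal markers 2 of 3 also fell in Bojungikgi-tang (median -0.32). In Banhasasim-tang 1 of 3 epithelial and 1 of 3 mesenchymal markers fell, KRT18 and COL1A1 (log2 fold changes -1.06 and -1.19). MOG, of oligodendrocytes, and AIF1, of myeloid cells, were at 0 in vehicle. The part of these markers in the dose comparisons was not tested.

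The ribosome is built from RNA and a fixed set of proteins, each present once or, for the stalk proteins P1 and P2, in pairs. Most ribosomal protein RNAs begin with a C followed by a run of pyrimidines, the 5′ terminal oligopyrimidine (TOP) motif. Through it the kinase mTORC1, with the RNA-binding protein LARP1 and the 4E-BP proteins, controls how well these RNAs are translated and stored. RNA sequencing of whole cells measures the level of these RNAs and not their translation, and in bulk RNA a lower level in every cell and fewer cells with the RNA cannot be told apart. Surplus ribosomal proteins are degraded, and the particle of RPL5, RPL11 and 5S rRNA binds MDM2 and so stabilises p53. Several members have a paralog, marked by L or L1 in the symbol, that can take its place in some tissues.

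The 8 starts printed here belong to the members on which the results turn. Each runs from 10 bases before to 20 bases after the RefSeq start on GRCh38.p14, on the gene's strand, and capitals mark the run of pyrimidines at the start where it begins with C. The windows are chr22:39319604-39319633 (minus) for RPL3, chr9:127451387-127451416 (minus) for RPL12, chr2:101002279-101002308 (plus) for RPL31 and chr3:170870176-170870205 (minus) for RPL22L1. Those of the others are chr1:6199576-6199605 (minus) for RPL22, chr1:153990752-153990781 (plus) for RPS27, chr12:56041908-56041937 (plus) for RPS26 and chr6:42879606-42879635 (plus) for RPL7L1.
RPL3: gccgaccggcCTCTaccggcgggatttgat
RPL12: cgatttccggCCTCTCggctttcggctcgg
RPL31: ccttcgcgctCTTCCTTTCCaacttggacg
RPL22L1: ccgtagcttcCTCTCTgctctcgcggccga
RPL22: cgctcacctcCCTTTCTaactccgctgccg
RPS27: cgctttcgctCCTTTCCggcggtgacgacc
RPS26: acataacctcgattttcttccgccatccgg
RPL7L1: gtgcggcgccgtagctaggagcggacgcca

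RPS26 and RPL7L1 have no capitals because the annotated start base is not a C. A start matching CTTT or CTTC, the forms CTCT or CTCC, the forms CCTT or CCTC, or the forms CCCT or CCCC on the gene's strand was found in 49 of the 69 members with a start in the RefSeq table (71%). Among all 27305 genes of that table, 1868 (6.84%) had such a start. The remaining 17 members are not in the table. A gene was counted as matching if any start listed for it matched, and each printed gene had 1 listed start. A start annotated a few bases off changes the match.

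In all but 1 library the 86 genes together took 3.49 to 4.16% of the counts. Their share of counts ranged from 3.49 to 4.65% over the 30 libraries, with a median of 3.77%. It was 3.75, 3.73 and 3.79% in vehicle. In Bojungikgi-tang it was 3.69, 4.65 and 3.68% at 20 µg/mL, 3.79, 3.90 and 3.65% at 100 µg/mL and 3.61, 3.70 and 3.69% at 500 µg/mL. One library, replicate 2 of Bojungikgi-tang at 20 µg/mL, stood apart from its group and from all others.

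In Banhasasim-tang the share was 3.70 and 3.76% at 20 µg/mL, 3.59 and 3.49% at 100 µg/mL and 3.89 and 3.97% at 500 µg/mL. Counted against nuclear protein-coding genes only, which takes out the mitochondrial RNA, it was 4.52 and 4.64% at 500 µg/mL and 4.19 and 4.21% at 20 µg/mL, and 4.03, 3.99 and 4.08% in vehicle. The 500 µg/mL pair lay above both other groups by either denominator. Sayeok-tang spanned 3.56 to 4.16% over its 9 libraries, with each dose overlapping the others.

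**Figure D1:**
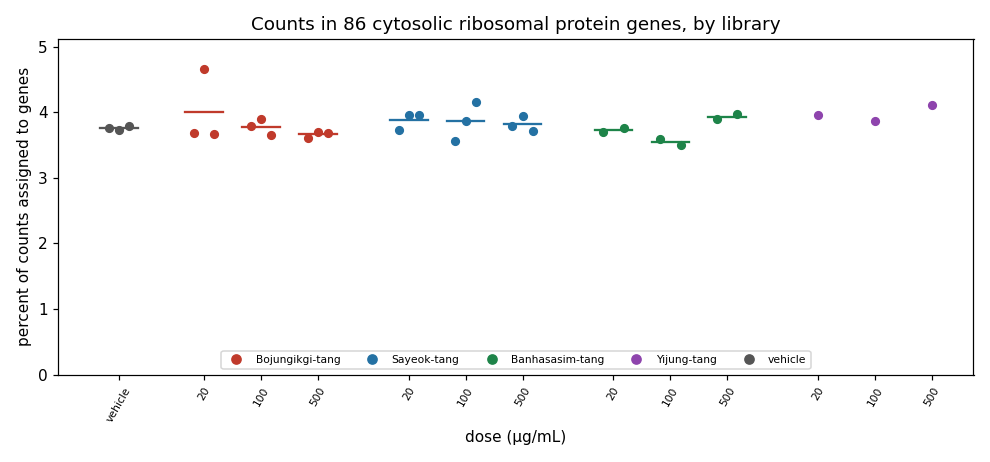
Share of the counts assigned to genes that fell in the 86 cytosolic ribosomal protein genes, in percent, in each of the 30 libraries by formula and dose in µg/mL; each point is a library and each bar a group mean. All but 1 library lie between 3.49 and 4.16%, and replicate 2 of Bojungikgi-tang at 20 µg/mL lies at 4.65%.

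In that Bojungikgi-tang library 83 of the 84 tested members were the highest of the 3 replicates, with a median log2 ratio of 0.36 to the mean of its group mates. It was the highest of all 30 libraries for 71 members. Neither count was made over all tested genes. The mean chi-square per gene measures how far the counts of a pair of libraries differ. Over the tested genes, and not the members alone, it was 32.8 and 33.2 for the pairs of this library with its group mates. The pair of those mates had 13.6. Most counts and several calls below that use this group are therefore also given without this library. The others include it.

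Levels differed far more between members than between treatments. Per kilobase of the median coding transcript, members in vehicle ranged from 0.0974 to 1770.2 CPM per kb with a median of 634 CPM per kb. RPS2, which lines the mRNA entry channel, was highest, followed by RPL10 at 1679 CPM per kb, RPL39 at 1403 CPM per kb, RPS18 at 1303 CPM per kb and RPLP0, the base of the stalk, at 1123 CPM per kb. The 5 lowest of those tested were all paralogs: RPL7L1 at 64.7, RPL26L1 at 39.6, RPL22L1 at 33.7, RPL39L at 13.1 and the muscle paralog RPL3L at 0.0974 CPM per kb. The coefficient of variation over the 30 libraries had a median of 8.22% (5.21 to 35.2%), highest in the low-count RPL3L. The authors' estimated counts split reads among near-identical copies, and 1602 annotated ribosomal protein pseudogenes together held 0.067 to 0.0948% of counts, so the level of a single member is uncertain.

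Between the highest and the lowest dose of Banhasasim-tang, 12 members rose and most of the others had positive fold changes. Against 20 µg/mL, 12 of 84 members rose at 500 µg/mL and 1 fell, by edgeR's quasi-likelihood test at an adjusted p under 0.05 over all tested genes, while 22.3% of all tested genes rose and 21.3% fell. At 14.3% the share of members that rose was below that of all genes, while 75 of 84 members had a positive fold change, with a median log2 fold change of 0.15 over the members and 0.01 over all genes. The count depended on the fit: 37 members rose with no filter on low counts and 42 when only the groups compared were fitted. Of the 12, 10 were large subunit genes, and the subunits were not tested against each other. The count was 6 without replicate 3 at 500 µg/mL, and with library size as the only scaling 7 rose and 2 fell.

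RPL3, which reaches the peptidyl transferase centre, carried the clearest of these changes. It had 583 and 538 CPM at 20 µg/mL, 635 and 622 CPM at 100 µg/mL and 754 and 779 CPM at 500 µg/mL, beside 565, 548 and 560.0 CPM in vehicle. Both 500 µg/mL libraries were the 2 highest of all 30, and the 100 µg/mL pair lay between them and the 20 µg/mL pair. The log2 fold change of 500 against 20 µg/mL was 0.45 ± 0.06 (SE; adjusted p = 1.5e-06, edgeR), and against vehicle 0.46 ± 0.06 (adjusted p = 1.6e-07, edgeR). Both calls held with each library left out in turn.

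RPL12, at the foot of the stalk, had 544 and 512 CPM at 20 µg/mL, 598 and 563 CPM at 100 µg/mL and 647 and 721 CPM at 500 µg/mL, beside 468, 440.2 and 446 CPM in vehicle. Here all 6 Banhasasim-tang libraries were above vehicle, and those at 500 µg/mL were above the others. The log2 fold change was 0.37 ± 0.08 against 20 µg/mL (SE; adjusted p = 0.00053, edgeR) and 0.60 ± 0.07 against vehicle (adjusted p = 1.7e-07, edgeR). These calls also held without each library.

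RPL31, at the mouth of the exit tunnel, had 122 and 126 CPM at 20 µg/mL, 127 and 133 CPM at 100 µg/mL and 163 and 165 CPM at 500 µg/mL. The 500 µg/mL pair did not overlap the lower doses (log2 fold change 0.40 ± 0.13 against 20 µg/mL, SE; adjusted p = 0.016, edgeR), but the call was lost without either 500 µg/mL library or without replicate 2 at 20 µg/mL, with p up to 0.083. RPL10, one of the last proteins to join the large subunit, had 1443 and 1474 CPM at 500 µg/mL and 1232 and 1206 CPM at 20 µg/mL (log2 fold change 0.26, adjusted p = 0.011, edgeR), a call lost without replicate 3 of either dose (p up to 0.073). Among the small subunit, RPS18 had 929 and 897 CPM at 500 µg/mL and 728 and 766 CPM at 20 µg/mL (log2 fold change 0.29, adjusted p = 0.0036, edgeR), and kept the call without each library. RPS3, at the mRNA entry, had 680.5 and 685 CPM and 588 and 596 CPM (log2 fold change 0.21, adjusted p = 0.045, edgeR), and lost the call without any 1 of the 4 libraries (p up to 0.155).

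Few members changed at the middle dose of Banhasasim-tang. Against 20 µg/mL, 0 of 84 rose and 1 fell at 100 µg/mL, while 3.64% of all tested genes rose and 2.96% fell, and the median over the members was 0.01. The single call, RPS26, was lost without any 1 of the 4 libraries (p up to 0.253).

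RPS26 fell at 500 against 20 µg/mL in all 3 replicated formulas, and in Banhasasim-tang it did so while most other members had positive fold changes. Its protein sits at the mRNA exit channel, where it contacts the bases upstream of the start codon, and its gene is one of those mutated in Diamond-Blackfan anaemia. In Banhasasim-tang it had 188 and 178 CPM at 20 µg/mL, 149 and 145 CPM at 100 µg/mL and 114 and 121 CPM at 500 µg/mL. The 3 doses did not overlap, and the 500 µg/mL pair was also below vehicle at 166, 166 and 175 CPM. At 500 against 20 µg/mL the log2 fold change was -0.64 ± 0.09 (SE; adjusted p = 4.3e-06, edgeR), and that of 500 µg/mL against vehicle -0.53 ± 0.09 (adjusted p = 1.6e-05, edgeR).

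In Bojungikgi-tang RPS26 had 184, 238 and 181 CPM at 20 µg/mL, 157, 166 and 165 CPM at 100 µg/mL and 154, 155 and 153 CPM at 500 µg/mL. Every 500 µg/mL library was below every one at the other doses. The log2 fold change of 500 against 20 µg/mL was -0.39 ± 0.07 (SE; adjusted p = 0.00077, edgeR), and -0.24 without the library that stands apart (adjusted p = 0.0017, edgeR). At 20 µg/mL against vehicle it was 0.25 (adjusted p = 0.016, edgeR), a call lost without that library, where it was 0.12 (adjusted p = 0.13, edgeR), and without vehicle replicate 1 or 2. At 100 against 20 µg/mL 0 of 84 members rose and RPS26 was the 1 that fell, beside 0.458% of all tested genes that rose and 1.11% that fell. It was not called without that library or without any 1 of the 100 µg/mL libraries, when 0 members fell, and 7 members fell without replicate 3 at 20 µg/mL.

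In Sayeok-tang RPS26 had 176, 190.1 and 192 CPM at 20 µg/mL, 169.8, 179.9 and 197 CPM at 100 µg/mL and 143, 163 and 143 CPM at 500 µg/mL. The 500 µg/mL libraries were again below all at 20 µg/mL (log2 fold change -0.32 ± 0.08, SE; adjusted p = 0.0035, edgeR). In each of the 3 formulas the 500 against 20 µg/mL call held with each library left out. In the single Yijung-tang libraries it had 179, 178 and 171 CPM at 20, 100 and 500 µg/mL. RPS26 has processed pseudogenes, and the levels rest on the authors' split of shared reads.

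**Figure D2:**
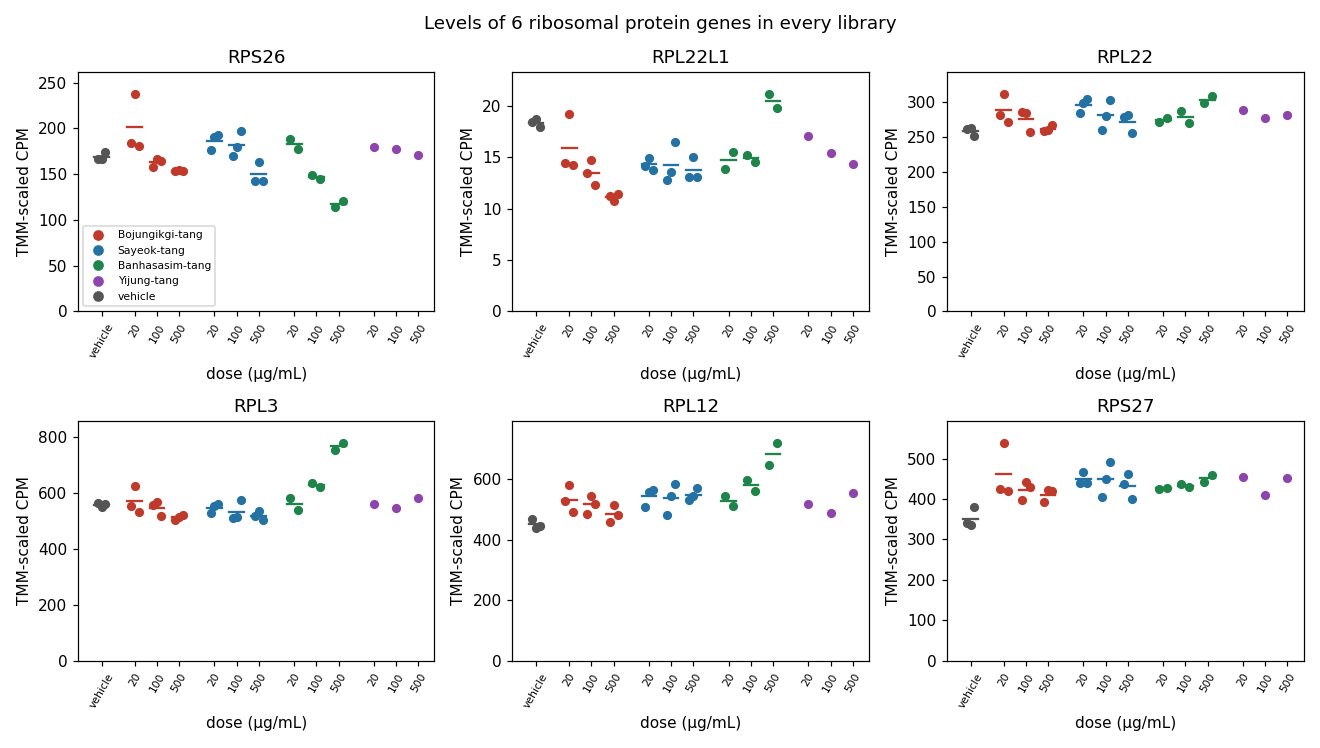
TMM-scaled CPM of RPS26, RPL22L1, RPL22, RPL3, RPL12 and RPS27 in every library against formula and dose in µg/mL; each point is a library, each bar a group mean, and Yijung-tang has 1 library per dose. RPS26 is lowest at 500 µg/mL in 3 formulas, RPL22L1 lies between 10.7 and 11.4 CPM in Bojungikgi-tang and at 21.2 and 19.8 CPM in Banhasasim-tang at that dose, and RPL3 and RPL12 are highest in Banhasasim-tang at 500 µg/mL.

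RPL22L1 fell with dose in one formula and rose in another. It is the paralog of RPL22, and in mouse the RPL22 protein is known to lower Rpl22l1 RNA. In Bojungikgi-tang it had 14.4, 19.2 and 14.2 CPM at 20 µg/mL, 13.5, 14.7 and 12.3 CPM at 100 µg/mL and 11.2, 10.7 and 11.4 CPM at 500 µg/mL, beside 18.4, 18.7 and 17.9 CPM in vehicle. The 500 µg/mL libraries were the 3 lowest of all 30. The log2 fold change was -0.52 ± 0.10 against 20 µg/mL (SE; adjusted p = 0.00056, edgeR), -0.36 without the library that stands apart (adjusted p = 0.0034, edgeR), and -0.72 ± 0.10 against vehicle (adjusted p = 5.1e-06, edgeR).

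Banhasasim-tang took RPL22L1 the other way. It had 13.9 and 15.5 CPM at 20 µg/mL, 15.2 and 14.6 CPM at 100 µg/mL and 21.2 and 19.8 CPM at 500 µg/mL. Only the 500 µg/mL pair reached above the vehicle range, and the other doses lay below it. Its log2 fold change of 500 against 20 µg/mL was 0.48 ± 0.12 (SE; adjusted p = 0.0018, edgeR) and held without each library, while against vehicle it was 0.15 (adjusted p = 0.25, edgeR).

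In Sayeok-tang RPL22L1 had 14.2, 14.9 and 13.8 CPM at 20 µg/mL, 12.8, 13.5 and 16.5 CPM at 100 µg/mL and 13.1, 15.0 and 13.1 CPM at 500 µg/mL, with the doses overlapping and all 9 libraries below vehicle. The 500 against 20 µg/mL difference was -0.06 (-0.26 to 0.13, 2 SE either side; adjusted p = 0.73, edgeR). Against vehicle it fell by 0.42 at 500 µg/mL (adjusted p = 0.0016, edgeR) and by 0.36 at 20 µg/mL (adjusted p = 0.010, edgeR) on the log2 scale. In Yijung-tang it had 17.0, 15.4 and 14.4 CPM at 20, 100 and 500 µg/mL.

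RPL22 itself, a large subunit protein that also binds other RNAs, had smaller fold changes between doses. It had 281, 312 and 271 CPM at 20 µg/mL, 287, 285 and 257 CPM at 100 µg/mL and 258, 261 and 267 CPM at 500 µg/mL of Bojungikgi-tang (log2 fold change of 500 against 20 µg/mL -0.14, adjusted p = 0.090, edgeR). In Banhasasim-tang it had 272 and 277 CPM, 287 and 270.2 CPM and 298 and 309 CPM in the same order of dose (log2 fold change 0.15, adjusted p = 0.080, edgeR). In both formulas the sign was that of RPL22L1 and the difference did not pass, while the dose effect in Banhasasim-tang minus that in Bojungikgi-tang was 0.28 (adjusted p = 0.012, edgeR), and 0.21 without the library that stands apart (adjusted p = 0.036, edgeR).

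The other paralogs each had their own pattern. RPL26L1 fell at 500 µg/mL of Bojungikgi-tang to 22.0, 20.4 and 22.3 CPM, against 26.9, 26.5 and 28.1 CPM in vehicle (log2 fold change -0.33 ± 0.07, SE; adjusted p = 0.00097, edgeR), while its partner RPL26, near the tunnel exit, had 467, 479.8 and 460.0 CPM against 439, 446 and 461 CPM (log2 fold change 0.06, adjusted p = 0.52, edgeR). Whether the fold changes of the partners differ was not tested. RPS27L, a paralog of RPS27 known as a p53 target, had 52.4, 58.9 and 63.4 CPM at 500 µg/mL and 70.8, 86.9 and 63.3 CPM at 20 µg/mL of Bojungikgi-tang. These groups overlapped (log2 fold change -0.34 ± 0.10, SE; adjusted p = 0.023, edgeR), and the call was lost without the library that stands apart and without replicate 1 or 2 at 500 µg/mL (p up to 0.185).

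RPL39L, best known from testis and tumours, stayed between 8.97 and 13.1 CPM over all 30 libraries and passed in none of the 15 comparisons. Its partner RPL39, which lines the exit tunnel, had 425, 452 and 447 CPM at 500 µg/mL of Bojungikgi-tang against 570.1, 546 and 571 CPM in vehicle (log2 fold change -0.35 ± 0.11, SE; adjusted p = 0.020, edgeR), a call lost without vehicle replicate 1 or 3 or replicate 1 at 500 µg/mL (p up to 0.067). RPL3L, the striated muscle paralog of RPL3, had 0.313 and 0.321 CPM at 500 µg/mL of Banhasasim-tang against 0.106, 0.158 and 0.139 CPM in vehicle (log2 fold change 1.20 ± 0.46, SE; adjusted p = 0.032, edgeR). At such levels the call was lost without any 1 of the 5 libraries (p up to 0.121). RPS4X had log2 fold changes between -0.07 and 0.11 in the 3 comparisons of 500 with 20 µg/mL and passed in none.

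In Bojungikgi-tang, how many members fell at the highest dose depends on the library that stands apart and on the fit. At 500 against 20 µg/mL 0 of 84 rose and 25 fell, beside 6.64% of all tested genes that rose and 8.9% that fell, and 82 of 84 fold changes were negative with a median of -0.18. Without replicate 2 at 20 µg/mL 0 rose and 5 fell, with a median of -0.06, beside 5.81% of all tested genes that rose and 7.63% that fell, so the share of members that fell was then below that of all genes. With no filter on low counts 62 fell, and 2 fell when only the groups compared were fitted. Without replicate 1, 2 or 3 at 500 µg/mL 8, 12 and 11 fell, and without replicate 1 or 3 at 20 µg/mL 40 and 56 fell. With library size as the only scaling 0 rose and 7 fell.

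Besides RPS26 and RPL22L1, RPL5 kept its call without each library. It had 582, 696 and 558 CPM at 20 µg/mL, 555, 559 and 511 CPM at 100 µg/mL and 503, 516 and 507 CPM at 500 µg/mL, beside 603, 583 and 605 CPM in vehicle. The 500 µg/mL libraries lay below all at 20 µg/mL and below vehicle. Its log2 fold change was -0.27 ± 0.06 against 20 µg/mL (SE; adjusted p = 0.0033, edgeR), -0.16 without the library that stands apart (adjusted p = 0.032, edgeR), and -0.23 against vehicle (adjusted p = 0.0046, edgeR).

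RPL11 is its partner in the 5S particle. In Bojungikgi-tang it had 663, 700.2 and 608 CPM at 20 µg/mL, 627, 656 and 594 CPM at 100 µg/mL and 571, 608 and 610.5 CPM at 500 µg/mL, with overlapping doses and every library above the 536, 535 and 549 CPM of vehicle. The log2 fold change was -0.14 for 500 against 20 µg/mL (adjusted p = 0.12, edgeR), -0.09 without the library that stands apart, and 0.14 for 500 µg/mL against vehicle (adjusted p = 0.061, edgeR). Whether the changes of both partners differ was not tested.

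Few members changed between the doses of Sayeok-tang. At 500 against 20 µg/mL 0 of 84 rose and 4 fell, beside 9.89% of all tested genes that rose and 10.6% that fell, with a median of -0.07. The count of members that fell was 1 without replicate 2 at 20 µg/mL or replicate 3 at 500 µg/mL, and 2 without replicate 3 at 20 µg/mL. Besides RPS26, RPL11 had 565, 604 and 548 CPM at 500 µg/mL and 624, 695 and 671 CPM at 20 µg/mL (log2 fold change -0.21 ± 0.06, SE; adjusted p = 0.0098, edgeR), and RPL24, of an intersubunit bridge, had 170.3, 174 and 141 CPM and 190.3, 192 and 201 CPM (log2 fold change -0.27 ± 0.09, SE; adjusted p = 0.035, edgeR). In both genes the doses did not overlap, and both calls were lost without replicate 2 at 20 µg/mL or replicate 3 at 500 µg/mL, and that of RPL24 also without replicate 1 or 3 at 20 µg/mL. At 100 against 20 µg/mL edgeR and DESeq2 called 0 members, with 1 at an unadjusted p under 0.05, beside 0.0204% of all tested genes that rose and 0.0102% that fell.

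By group means, 75 members of 84 fell stepwise from 20 over 100 to 500 µg/mL of Bojungikgi-tang and 0 rose stepwise. Without the library that stands apart 30 fell and 1 rose. In Sayeok-tang 42 fell and 5 rose, and in Banhasasim-tang 5 fell and 48 rose. RPS26, RPS27L and RPL6 fell stepwise in all 3 formulas (RPL6 is named here after its values were seen). Group means give no error of their own, and these orders are a description. The same orders were not counted over all tested genes, so whether they set the members apart is not known.

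The comparisons with vehicle share the same 3 vehicle libraries, so their values are given side by side. At 500 µg/mL of Bojungikgi-tang 3 members rose and 18 fell, beside 16.4% of all tested genes that rose and 18.2% that fell, with a median of -0.12. The rise was 1 member without vehicle replicate 1 or 2 or replicate 2 or 3 at 500 µg/mL, and 12 to 15 fell with any 1 library left out. At 20 µg/mL 20 rose and 1 fell, beside 12.4% and 13.8% of all tested genes and with a median of 0.07. Without replicate 2 at 20 µg/mL 6 rose and 17 fell, with a median of -0.05, beside 10.2% and 11.3% of all tested genes, and without vehicle replicate 1 or 2 10 rose.

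At 500 µg/mL of Sayeok-tang 7 members rose and 8 fell, beside 18.8% of all tested genes that rose and 19.4% that fell, with a median of -0.05. The counts were 4 and 3 without vehicle replicate 1, and 4 and 4 without replicate 1 at 500 µg/mL; 3 rose without replicate 2 and 3 fell without replicate 3 at that dose. With library size as the only scaling 8 rose and 6 fell. At 20 µg/mL 15 rose and 3 fell, beside 12% and 13.4% of all tested genes and with a median of 0.03; 9 rose without vehicle replicate 2 or replicate 2 at 20 µg/mL and 8 without replicate 3.

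Banhasasim-tang at 500 µg/mL gave 32 members that rose and 2 that fell, beside 25.9% of all tested genes that rose and 25.1% that fell, with a median of 0.15. The count that rose was 17 without replicate 3 at 500 µg/mL. When scaled by library size alone, the median of all tested genes was -0.12, with 3507 higher and 6775 lower in place of 5075 and 4931, and 11 members rose and 2 fell around a median of 0.02. At 20 µg/mL 7 rose and 2 fell, beside 8.89% and 9.39% and with a median of 0.01. Those counts were not stable: 0 to 4 rose and 0 or 1 fell with any 1 of the 5 libraries left out, and 2 rose and 3 fell with library size as the only scaling.

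**Figure D3:**
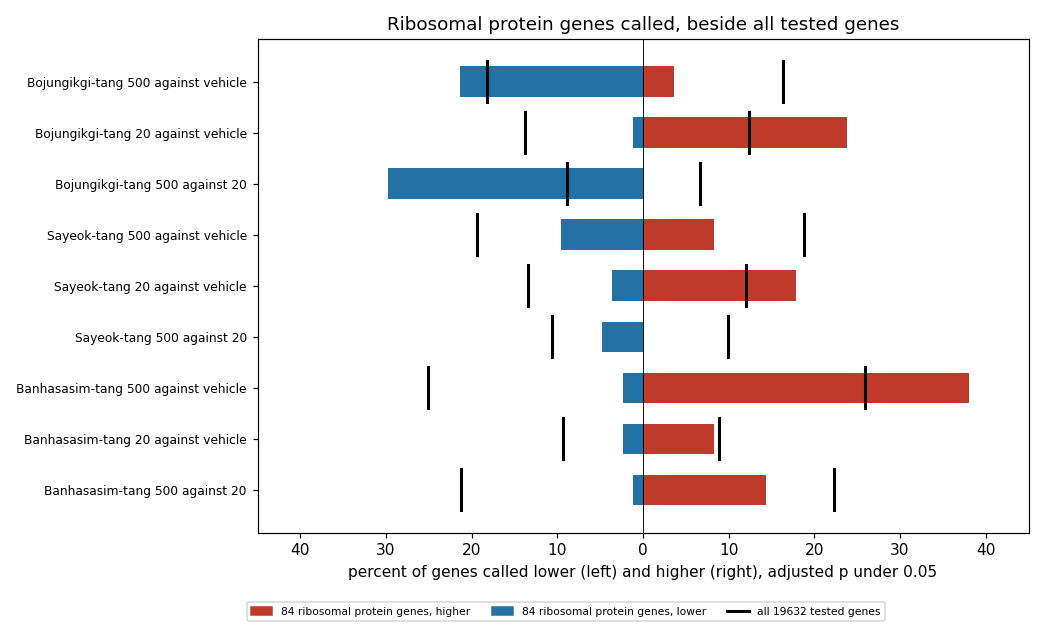
Percent of the 84 tested ribosomal protein genes called lower (left, blue) and higher (right, red) at an adjusted p under 0.05 by edgeR in 9 comparisons; black ticks give the same percent over all 19632 tested genes. The members lie beyond the tick for lower in Bojungikgi-tang at 500 against 20 µg/mL. They also do so at 500 µg/mL against vehicle (21.4% against 18.2%, fewer with any 1 library left out). They lie beyond the tick for higher in Banhasasim-tang at 500 µg/mL against vehicle (fewer with any 1 library left out). The same holds at 20 µg/mL against vehicle for Sayeok-tang (17.9% against 12%, fewer without some single libraries). It also holds for Bojungikgi-tang at that dose (23.8% against 12.4%, fewer without replicate 2 at 20 µg/mL). They lie below both ticks in Sayeok-tang at 500 µg/mL against vehicle and in Banhasasim-tang at 20 µg/mL against vehicle. This is also so in Sayeok-tang and Banhasasim-tang at 500 against 20 µg/mL. The Bojungikgi-tang bar of 25 members that fell (29.8%) becomes 5 of 84, against 7.63% of all tested genes, without 1 library.

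RPS2 and RPS27 lay above vehicle in the treated libraries. RPS2 had 1722, 1798 and 1648 CPM at 500 µg/mL of Bojungikgi-tang, 1718, 1838 and 1796 CPM in Sayeok-tang and 1825 and 2041 CPM in Banhasasim-tang, against 1403, 1401 and 1558 CPM in vehicle. No treated library of these overlapped vehicle, and the log2 fold changes were 0.24 ± 0.07, 0.29 ± 0.07 and 0.41 ± 0.07 (SE; adjusted p = 0.0045, 0.00075 and 3.0e-05, edgeR). At 20 µg/mL they were 0.42, 0.36 and 0.34 in the same order of formula. Of these calls only that of Banhasasim-tang at 20 µg/mL was lost when a library was left out (adjusted p = 0.067, edgeR, without replicate 2 at that dose).

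RPS27, a zinc finger protein of the small subunit, had 392, 422 and 419 CPM at 500 µg/mL of Bojungikgi-tang, 436, 462 and 399.8 CPM in Sayeok-tang and 443 and 459 CPM in Banhasasim-tang, against 340.3, 336 and 379 CPM in vehicle. Again the treated libraries did not overlap vehicle (log2 fold changes 0.22, 0.30 and 0.36; adjusted p = 0.031, 0.0044 and 0.0015, edgeR). The first of these calls was lost without vehicle replicate 1 or 2 or without replicate 2 or 3 at 500 µg/mL (p up to 0.115).

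RPL7L1 went the other way in these comparisons. It is the human counterpart of the yeast large subunit assembly factor Rlp7, and its symbol makes it a member by the naming rule. It had 206, 198 and 198 CPM at 500 µg/mL of Bojungikgi-tang, 213, 211 and 200.5 CPM in Sayeok-tang and 206 and 198 CPM in Banhasasim-tang, against 250.3, 245 and 236 CPM in vehicle. Every treated library was below every vehicle one. The log2 fold changes were -0.28 ± 0.04, -0.23 ± 0.04 and -0.27 ± 0.05 (SE; adjusted p = 9.0e-06, 0.00011 and 2.7e-05, edgeR). The call of Sayeok-tang was lost when a trend with GC content and length was removed (adjusted p = 0.133, edgeR). Its partner RPL7, a protein of mature ribosomes, had log2 fold changes of -0.11, -0.10 and 0.05 and passed in none of them.

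Members of the stalk and others fixed by their role are given here against vehicle. RPLP0 had 1024 and 1070.3 CPM at 500 µg/mL of Banhasasim-tang against 941, 934 and 977 CPM in vehicle (log2 fold change 0.14, adjusted p = 0.095, edgeR). The stalk tips RPLP1 and RPLP2 had log2 fold changes of 0.30 (adjusted p = 0.046, edgeR; lost without any 1 of the 5 libraries, and adjusted p = 0.066, edgeR, with the replicate number as a block) and 0.10 (adjusted p = 0.40, edgeR). RPS6, the substrate of the S6 kinases, rose by 0.19 (adjusted p = 0.026, edgeR; lost without vehicle replicate 1 or 2 or either 500 µg/mL library) and RPSA by 0.19 (adjusted p = 0.020, edgeR; lost without vehicle replicate 1 or 2 or replicate 3 at 500 µg/mL). RPS19, the gene most often mutated in Diamond-Blackfan anaemia, had 394 and 386 CPM against 354, 328 and 366 CPM (log2 fold change 0.16, adjusted p = 0.26, edgeR), and RPL23, which like the 5S particle can bind MDM2, 0.12 on the log2 scale (adjusted p = 0.28). RPL41, the smallest ribosomal protein, had 603 and 701 CPM against 489, 482 and 527 CPM (log2 fold change 0.39, adjusted p = 0.011, edgeR; lost without replicate 3 at 500 µg/mL).

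The difference between formulas was tested directly, as the difference of the 500 against 20 µg/mL effects, a comparison that contains no vehicle library. Banhasasim-tang carries another label set than Bojungikgi-tang and Sayeok-tang, so in its differences formula and label set cannot be told apart. Banhasasim-tang minus Bojungikgi-tang was positive and past the threshold for 44 members and negative for 0, beside 16.5% of all tested genes higher and 15.3% lower, with a median of 0.33. Of these 29 were of the large and 15 of the small subunit. Without replicate 2 of Bojungikgi-tang at 20 µg/mL the counts were 31 and 1, with a median of 0.20, beside 16.5% of all tested genes higher and 16.7% lower. Without replicate 2 of Banhasasim-tang at 20 µg/mL or replicate 3 at 500 µg/mL 21 were higher, and with library size as the only scaling 16 were higher and 1 lower around a median of 0.21, with the median of all tested genes at -0.11.

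RPL22L1 had the largest difference among the called members, 0.99 ± 0.15 on the log2 scale (SE; adjusted p = 1.6e-05, edgeR), and 0.83 without that library. RPL3 differed by 0.60 ± 0.08 (adjusted p = 1.7e-06, edgeR) and by 0.52 without the library. RPL12 differed by 0.51 (adjusted p = 0.00049, edgeR), or 0.43 without it, and RPL5 by 0.45 (adjusted p = 0.00077, edgeR), or 0.33 without it. For all 4 the dose effect was more positive in Banhasasim-tang than in Bojungikgi-tang, where the point estimates were negative. RPL5 did not pass the test between the high and the low dose within Banhasasim-tang. The 1 member that became lower without the library was RPS26, at -0.40 (adjusted p = 0.00021, edgeR) and -0.26 with it (adjusted p = 0.11).

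**Figure D4:**
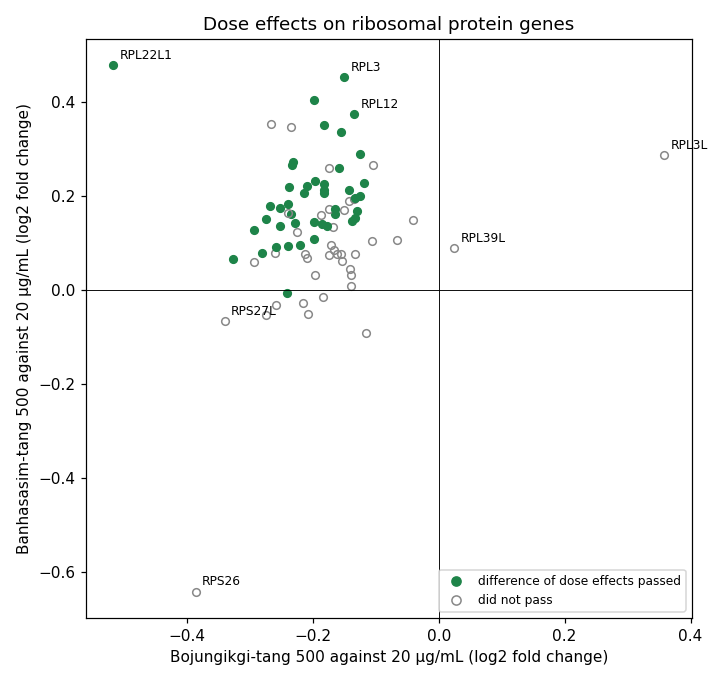
Log2 fold change of 500 against 20 µg/mL in Banhasasim-tang (vertical) and Bojungikgi-tang (horizontal) for the 84 tested ribosomal protein genes, 1 point each; filled points passed the test of the difference between the 2 effects. Most members lie in the upper left, with RPL22L1 at 0.48 and -0.52, and RPS26 lies apart at -0.64 and -0.39. All libraries are included, also replicate 2 of Bojungikgi-tang at 20 µg/mL.

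Banhasasim-tang minus Sayeok-tang, which shares the Banhasasim-tang libraries with the comparison above, was higher for 10 members and lower for 1, beside 12.2% of all tested genes in each direction, with a median of 0.21. The number higher was 4 without replicate 3 of Banhasasim-tang at 500 or at 20 µg/mL, 5 without its replicate 2 at 500 µg/mL, 6 without its replicate 2 at 20 µg/mL and 5 without replicate 3 of Sayeok-tang at 500 µg/mL. With library size as the only scaling 4 were higher and 1 lower. RPL3 differed by 0.53 ± 0.08 (SE; adjusted p = 1.8e-05, edgeR), and RPL22L1 by 0.54 ± 0.15 (adjusted p = 0.011, edgeR; lost without replicate 2 of either dose of Banhasasim-tang, p up to 0.075). RPS26 was the 1 lower member, at -0.33 (adjusted p = 0.048, edgeR), lost without any 1 of 8 libraries, all but replicates 1 and 3 of Sayeok-tang at 500 µg/mL. Sayeok-tang minus Bojungikgi-tang gave 0 calls by edgeR, 2 at an unadjusted p under 0.05 and 1 higher by DESeq2, beside 2.12% and 2.37% of all tested genes higher and lower; its median was 0.13, and -0.01 without the library that stands apart.

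Yijung-tang had 1 library per dose and no test. By a log2 ratio to the vehicle mean beyond 0.25, 9 members were higher and 1 lower at 500 µg/mL, beside 17.9% and 16.3% of all tested genes. At 100 µg/mL 3 were higher and 0 lower, beside 10.1% and 8.44%, and at 20 µg/mL 8 and 0, beside 9.03% and 6.75%. The medians over members were 0.04 at 20 µg/mL, 0.01 at 100 µg/mL and 0.09 at 500 µg/mL. At 500 µg/mL 57 members lay above and 10 below the range of the 3 vehicle libraries. The counts were 35 and 26 at 100 µg/mL and 43 and 19 at 20 µg/mL. They were not made over all tested genes, so nothing follows from them for the members in particular. The 1 lower member was RPL22L1, and RPS2 at 1938 CPM and RPL41 at 669 CPM had the largest ratios upward (0.41 and 0.42).

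Host genes of small nucleolar RNAs, many of them known to carry a TOP start, rose in Banhasasim-tang. Of 11 such genes, 10 rose at 500 against 20 µg/mL and 0 fell, with a median of 0.41, beside 22.3% of all tested genes that rose and 21.3% that fell. GAS5 had 106 and 101 CPM at 500 µg/mL and 56.6 and 56.9 CPM at 20 µg/mL, beside 57.3, 61.8 and 63.7 CPM in vehicle. The high dose did not overlap either group (log2 fold change 0.86 ± 0.07 against 20 µg/mL, SE; adjusted p = 1.0e-10, edgeR), and ZFAS1 differed by 0.63 and SNHG8 by 0.51 on the log2 scale. SNHG12 was the 1 that did not pass, at 0.00. In Bojungikgi-tang 0 of the 11 rose and 5 fell, with a median of -0.21, beside 6.64% and 8.9% of all tested genes. Without the library that stands apart 0 rose and 2 fell, with a median of -0.08, beside 5.81% and 7.63%. In Sayeok-tang 0 rose and 1 fell, beside 9.89% and 10.6%.

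Of 26 translation factors and other genes named for TOP RNAs, 10 rose and 1 fell in Banhasasim-tang at 500 against 20 µg/mL, with a median of 0.12, beside 22.3% and 21.3% of all tested genes. EEF1A1, which brings aminoacyl-tRNA to the ribosome, had 7165 and 7235 CPM at 500 µg/mL and 5079 and 5179 CPM at 20 µg/mL (log2 fold change 0.49 ± 0.06, SE; adjusted p = 3.7e-07, edgeR), and the initiation factor EIF4B differed by 0.52. HNRNPA1, an RNA-binding protein, was the 1 that fell, by 0.30 on the log2 scale. In Bojungikgi-tang 0 rose and 13 fell, with a median of -0.16, beside 6.64% and 8.9% of all tested genes, or 0 and 5 without the library that stands apart, beside 5.81% and 7.63%. In Sayeok-tang 1 rose and 5 fell, beside 9.89% and 10.6%.

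Partners that fold, carry or assemble ribosomal proteins did not share one direction. Of 21, 6 rose and 7 fell in Banhasasim-tang at 500 against 20 µg/mL, with a median of -0.01, beside 22.3% and 21.3% of all tested genes. PDCD2L, a partner of RPS2, differed by 0.66 and the export adaptor NMD3 by 0.44, while GRWD1, a carrier of RPL3, differed by -0.29 and EIF6, which keeps the subunits apart, by -0.25. In Bojungikgi-tang 0 rose and 10 fell, among them EIF6 by 0.41 on the log2 scale, beside 6.64% and 8.9% of all tested genes. Without the library that stands apart 0 rose and 7 fell, beside 5.81% and 7.63%. Sayeok-tang gave 0 and 4, beside 9.89% and 10.6%.

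Among 18 genes of mTORC1 and its control of TOP RNAs, 8 rose and 5 fell in Banhasasim-tang at 500 against 20 µg/mL, beside 22.3% and 21.3% of all tested genes. TRIB3, a pseudokinase that binds AKT, had 282 and 290.4 CPM at 500 µg/mL and 26.7 and 24.5 CPM at 20 µg/mL (log2 fold change 3.48 ± 0.07, SE; adjusted p = 1.4e-23, edgeR). SESN2 and DDIT4, which restrain mTORC1, differed by 2.06 and 1.27, and EIF4EBP1 by 0.90 on the log2 scale. In Bojungikgi-tang 3 rose and 0 fell, beside 6.64% and 8.9%, or 4 and 0 without the library that stands apart, beside 5.81% and 7.63%. In Sayeok-tang 7 rose and 1 fell, beside 9.89% and 10.6%. These are RNA levels, and no activity of mTORC1 was measured.

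Of 11 genes of ribosome stress, MYC and p53, 10 were tested, and 5 rose and 1 fell in Banhasasim-tang at 500 against 20 µg/mL, beside 22.3% and 21.3% of all tested genes. MYC, which drives ribosome production, had 102 and 112 CPM at 500 µg/mL and 54.6 and 50.7 CPM at 20 µg/mL (log2 fold change 1.02 ± 0.06, SE; adjusted p = 3.8e-13, edgeR), and the high dose lay above the low dose. CDKN1A, a p53 target, differed by 0.53 and ZMAT3, another, by -0.28 on the log2 scale. In Bojungikgi-tang 2 rose and 1 fell, beside 6.64% and 8.9%, or 1 and 0 without the library that stands apart, beside 5.81% and 7.63%. In Sayeok-tang 3 rose and 0 fell, beside 9.89% and 10.6%.

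**Figure D5:**
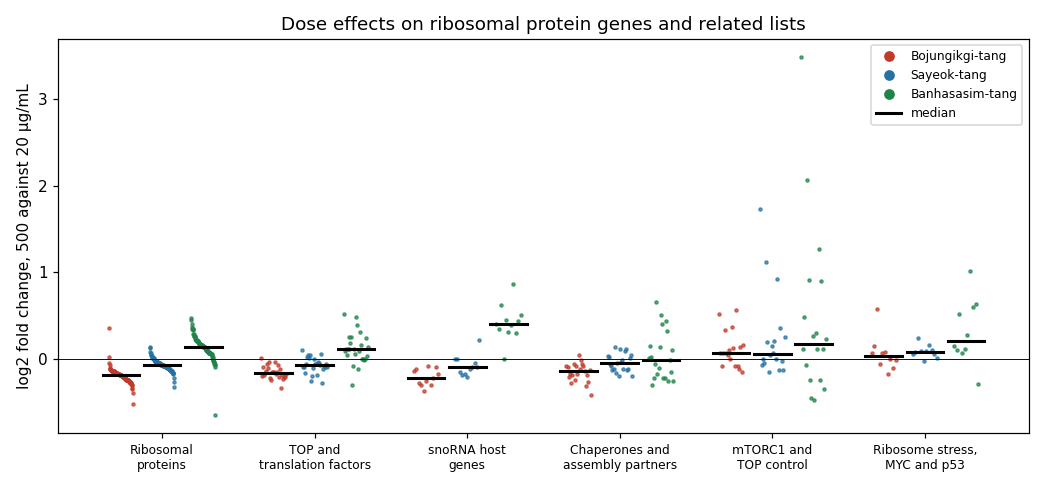
Log2 fold change of 500 against 20 µg/mL for the 84 ribosomal protein genes and 5 related gene lists in Bojungikgi-tang (red), Sayeok-tang (blue) and Banhasasim-tang (green); each point is a gene and each bar the median. The small nucleolar RNA host genes have medians of -0.21 in Bojungikgi-tang and 0.41 in Banhasasim-tang, and the member far below the others in Banhasasim-tang is RPS26 at -0.64. The Bojungikgi-tang median of these host genes was -0.08 without replicate 2 at 20 µg/mL.

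The tested members with a start in the RefSeq table, 49 with a matching start and 18 without, were compared by that start. In Banhasasim-tang at 500 against 20 µg/mL 8 of the 49 with a matching start rose, with a median of 0.16, and of the 18 with another start 4 rose and 1 fell, with a median of 0.10, beside 22.3% of all tested genes that rose and 21.3% that fell. The share that rose among the 49 was below that of all genes. In Bojungikgi-tang the medians were -0.18 with and -0.20 without the motif, and in Sayeok-tang both were -0.06. In Banhasasim-tang minus Bojungikgi-tang they were 0.35 and 0.30. Of the printed starts, those of RPL3, RPL12, RPL31, RPL22L1, RPL22 and RPS27 match, and those of RPS26 and RPL7L1 do not. With its matching start RPL22L1 rose with dose in Banhasasim-tang and fell in Bojungikgi-tang. Among the related lists the motif was at 16 of 19 starts of the TOP and translation factor list and at 4 of 10 small nucleolar RNA host genes, against 3 of 18 for the assembly partners. Members and lists differ in level and length, and no test was made of the motif.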

How the data were processed

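Per the submitters' processing notes, the authors used RSEM 1.3.3, STAR 2.7.3a, Trim Galore 0.6.5 and FastQC 0.11.9 with build hg38. No source used here gives the annotation release. The deposited values are RSEM's expected counts per gene, of which 9.36 to 11.1% per library were not whole. They were rounded to whole numbers here. RSEM divides reads that match several copies, so members with close paralogs or pseudogenes carry that uncertainty. A separate list of gene names gave symbols for 56558 of 60675 identifiers (93.2%), and GENCODE v29 gave biotypes, positions and transcript lengths.

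Counts were scaled by TMM in edgeR 4.0.16 under R 4.3.3, filtered with filterByExpr and fitted over all 30 libraries with 13 group means. The robust quasi-likelihood test gave 15 comparisons, with Benjamini-Hochberg adjustment over all 19632 tested genes at 0.05, and SE is the fold change divided by the root of F. The scripts were tested on simulated data. The members and gene lists were chosen with earlier results of these data known. Named members are those fixed by role, the 5 highest and 5 lowest levels, the 3 most positive and negative calls at 500 µg/mL of each replicated formula, and calls against the majority; some of them are not reported here. CPM are TMM-scaled throughout. Yijung-tang ratios to the vehicle mean used a pseudocount of 0.5 CPM.

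Library totals, the depth, ran from 28.01 M to 59.9 M counts. Replicate pairs had a mean chi-square per gene of 2.43 to 33.2, so none was counted as 1 library. For Sayeok-tang at 20 µg/mL against vehicle, libraries of the same replicate number deviated together (correlations 0.140 to 0.153 over genes). At 100 against 20 µg/mL of Sayeok-tang these correlations were 0.059 to 0.580, against -0.554 to 0.152 for unlike numbers. Elsewhere same-number correlations could be negative, as in Bojungikgi-tang at 20 µg/mL against vehicle (-0.153 to -0.012). The main fit holds no replicate block, which was run only as an alternative, and the labels do not say what a number marks. Alternatives were library-size scaling, DESeq2 size factors, DESeq2 1.42.0, no filter, TMM without the ribosomal protein rows, removal of a trend with GC content and length, a fit of only the groups compared, the replicate block and each library left out.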

Additional observations from a re-analysis of the deposited data

Results flagged for a closer look

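The dose effect of 500 against 20 µg/mL differed between formulas, by a test of the difference itself, for 44 members called higher in Banhasasim-tang than in Bojungikgi-tang, beside 16.5% of all tested genes higher and 15.3% lower. Among those named, the log2 difference was 0.99 for RPL22L1, 0.60 for RPL3, 0.60 for RPL31, 0.51 for RPL12, 0.49 for RPL39 and 0.45 for RPL5. In the small subunit it was 0.43 for RPS19, 0.42 for RPS3, 0.42 for RPS13, 0.41 for RPS18, 0.34 for RPS6 and 0.32 for RPS23. It was 0.42 for RPL10, 0.35 for RPL26L1, 0.34 for RPLP0, 0.30 for RPL26 and 0.28 for RPL22. All of these differences include replicate 2 of Bojungikgi-tang at 20 µg/mL. The count was 31 without replicate 2 of Bojungikgi-tang at 20 µg/mL, and 21 without replicate 2 of Banhasasim-tang at 20 µg/mL or its replicate 3 at 500 µg/mL. With library size as the only scaling 16 were higher and 1 lower.

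Between Banhasasim-tang and Sayeok-tang, 10 members had a higher and 1 a lower dose effect, beside 12.2% of all tested genes in each direction. The log2 difference was 0.54 for RPL22L1, 0.53 for RPL3, 0.36 for RPL12, 0.28 for RPL5, 0.27 for RPL22 and 0.27 for RPS18, and it was -0.33 for RPS26. The count was 4 without replicate 3 of Banhasasim-tang at either dose. In both comparisons the formulas carry different label sets, so formula and label set cannot be told apart. The causes were not tested.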

How the results depend on the processing

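Of the calls of named members, 81 were kept and 47 lost with library size as the only scaling, 104 and 24 in a fit of only the groups compared, 120 and 8 with a GC and length trend removed, 127 and 1 with DESeq2, and 569 and 257 over the refits that left out 1 library; no called sign changed. Counts of members are given as higher and lower where both moved. With library size as the only scaling they were 7 lower for Bojungikgi-tang at 500 against 20 µg/mL and 0 at 100 against 20 µg/mL, 2 lower for Sayeok-tang at 500 against 20 µg/mL, 11 higher for Banhasasim-tang at 500 µg/mL and 2 at 20 µg/mL against vehicle, 7 higher and 2 lower at 500 against 20 µg/mL, 16 and 1 for its difference from Bojungikgi-tang and 4 higher for that from Sayeok-tang. That scaling also gave all tested genes 2329 higher and 1023 lower for Bojungikgi-tang at 500 against 20 µg/mL, in place of 1304 and 1747, and 3359 and 5184 for Banhasasim-tang, in place of 4387 and 4185.

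With no filter on low counts the counts against vehicle were 7 higher for Bojungikgi-tang at 500 µg/mL and 34 and 3 at 20 µg/mL, 11 and 16 for Sayeok-tang at 500 µg/mL and 25 and 8 at 20 µg/mL, and 17 and 6 for Banhasasim-tang at 20 µg/mL. Between doses they were 62 lower (500 against 20 µg/mL) and 23 lower (100 against 20 µg/mL) for Bojungikgi-tang, 1 higher for Sayeok-tang and 37 higher for Banhasasim-tang, and between formulas 69 and 1, 34 higher (from Sayeok-tang) and 10 higher (Sayeok-tang minus Bojungikgi-tang). With a GC and length trend removed, 5 and 33 were called for Bojungikgi-tang at 500 µg/mL and 2 lower at 20 µg/mL, 17 lower for Sayeok-tang at 500 µg/mL and 9 lower at 20 µg/mL against vehicle, 1 higher for Banhasasim-tang at 100 against 20 µg/mL, 1 lower and 17 higher for its differences from Bojungikgi-tang and Sayeok-tang, and 1 higher for Sayeok-tang minus Bojungikgi-tang. DESeq2 called 2 lower for Bojungikgi-tang at 100 against 20 µg/mL and 1 higher for that last difference.

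A fit of only the groups compared gave, against vehicle, 12 and 47 for Bojungikgi-tang at 500 µg/mL and 8 and 0 at 20 µg/mL, 16 and 24 for Sayeok-tang at 500 µg/mL and 26 and 10 at 20 µg/mL, 54 higher for Banhasasim-tang at 500 µg/mL and 26 and 10 at 20 µg/mL. Between doses it gave 2 lower (500 against 20 µg/mL) and 0 (100 against 20 µg/mL) for Bojungikgi-tang, 9 lower for Sayeok-tang, 42 higher and, at 100 against 20 µg/mL, 2 and 2 for Banhasasim-tang, and 21 and 41 higher for its differences from Bojungikgi-tang and Sayeok-tang. The share of counts over the libraries was 3.93, 4.18 and 5.10% (lowest, median and highest) against nuclear protein-coding counts. The causes of these shifts were not tested.

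With 1 library left out in turn, the counts higher and lower against vehicle were 1 to 4 and 12 to 15 for Bojungikgi-tang at 500 µg/mL, 6 to 30 and 1 to 17 at 20 µg/mL, 3 to 6 and 3 to 11 for Sayeok-tang at 500 µg/mL, 8 to 16 and 2 to 2 at 20 µg/mL, 17 to 27 and 2 to 2 for Banhasasim-tang at 500 µg/mL, and 0 to 4 and 0 to 1 at 20 µg/mL. Between doses 5 to 56 were lower in Bojungikgi-tang (0 to 7 at 100 against 20 µg/mL) and 1 to 5 in Sayeok-tang, and 6 to 9 were higher in Banhasasim-tang (0 to 0 lower at 100 against 20 µg/mL). The differences of Banhasasim-tang from Bojungikgi-tang gave 21 to 65 and 0 to 1, those from Sayeok-tang 4 to 15 and 0 to 1, and Sayeok-tang minus Bojungikgi-tang 0 to 2 higher, the 2 without replicate 1 of Bojungikgi-tang at 20 µg/mL. With the replicate number as a block, 30 were lower in Bojungikgi-tang at 500 against 20 µg/mL, 16 higher and 1 lower in Banhasasim-tang, and 48 higher in the difference of both; Sayeok-tang at 20 µg/mL against vehicle gave 16 and 3. The block ended 2 calls of named members against vehicle, RPLP1 at 500 µg/mL (adjusted p = 0.066, edgeR) and RPL11 at 20 µg/mL of Banhasasim-tang (adjusted p = 0.065, edgeR), and no other. Same-numbered libraries of Banhasasim-tang at 500 and 20 µg/mL correlated at -0.263, and with the numbers crossed, an alternative chosen after seeing the data like the omission of the Bojungikgi-tang library from the lists, 17 were higher and 1 lower. Counts of 2 or 3 libraries a group limit the precision, and Yijung-tang has no error estimate.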
